A study of Homo sapiens with 6 samples.

Results

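Genes of squamous differentiation and of the cornified envelope were followed in 2 human esophageal adenocarcinoma cell lines, OE33 and Eso26, with and without an siRNA against PPARG. The set holds 10 genes, found by their symbols in both count tables, of 37493 Ensembl identifiers in each table. They are SPRR1A, SPRR1B, SPRR3, IVL, TGM1, TGM2, DSG3, DSC2, TP63 and SFN. All 10 had a row in both tables, and 6 reached 5 CPM (counts scaled to library size) in 1 library or more.

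Stratified squamous epithelium, which lines the normal esophagus, matures by building a cornified envelope beneath the plasma membrane. Precursor proteins such as involucrin and the small proline-rich proteins are crosslinked to each other by transglutaminases, and desmosomes hold the cells together. The transcription factor p63, encoded by TP63, maintains the basal layer from which these cells arise. Esophageal adenocarcinoma is a glandular (columnar) tumour, so squamous genes are not part of its usual profile.

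The 4 RNA-seq groups were OE33 siPPARG, OE33 control, Eso26 siPPARG and Eso26 control, with 1 library each. The siRNA against PPARG, a nuclear receptor of lipid metabolism, and the non-silencing control siRNA were both delivered by lipofection. OE33 was grown in DMEM and Eso26 in RPMI-1640, so line and medium cannot be told apart, and each line is a single tumour-derived culture. The design text speaks of triplicates, but each table held 1 column per condition, so siPPARG and control of a line are compared without replicates, with 95% counting intervals only.

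The libraries held between 16866996 and 23019840 counts. PPARG itself had 313 counts in OE33 siPPARG and 2156 in the OE33 control, a CPM ratio of 0.137 (interval 0.121 to 0.154). In Eso26 it had 201 counts in the library labelled siPPARG and 259 in the control, a ratio of 0.843 (interval 0.698 to 1.02). Lower PPARG mRNA could therefore not be detected in Eso26 at this depth. Of 12 columnar epithelial markers, 7 reached 5 CPM in both OE33 libraries and 10 in both Eso26 libraries. EPCAM, KRT8 and KRT18 were among them in both lines, while the intestinal markers CDH17, VIL1, KRT20 and HNF4A were at 18 counts or fewer in the OE33 control and at 1839 counts or more in the Eso26 control. Of 7 immune markers, CD3E and MS4A1 were at 0 in every library and PTPRC had at most 1 count. The list summed to 8.86 to 9.76 CPM in OE33, mostly CD14 (94 counts in siPPARG and 83 in the control), and to 25.3 CPM in both Eso26 libraries, mostly LYZ (527 counts in the library labelled siPPARG and 571 in the control). The 7 mesenchymal markers summed to between 4.46 and 8.20 CPM.

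The envelope precursors SPRR1A, SPRR1B, SPRR3 and IVL, which encodes involucrin, were detected in OE33 and nearly absent in Eso26. SPRR3 had 551 counts in OE33 siPPARG and 335 in the OE33 control, against 0 in both Eso26 libraries. SPRR1B had 427 and 206 counts in OE33 siPPARG and the OE33 control, and again 0 in both Eso26 libraries. IVL had 128 and 103 counts in OE33 siPPARG and the OE33 control and 0 in both Eso26 libraries. The gaps between the lines were therefore far wider than those between siPPARG and control. SPRR1A was the lowest of the 4 in OE33, with 49 counts in siPPARG and 57 in the control, and had 0 in the Eso26 library labelled siPPARG and 3 in the Eso26 control. Where no read was counted, a true level of up to 3 counts remains possible, equal to 0.129 CPM in the Eso26 control. In such bulk RNA, fewer cells expressing a gene and less RNA per cell cannot be told apart.

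These 4 genes lie in the epidermal differentiation complex on chromosome 1, with SPRR1A, SPRR3 and SPRR1B next to each other. In the RefSeq gene order of GRCh38.p14, the coding genes between involucrin and loricrin run IVL, SPRR5, SPRR4, SPRR1A, SPRR3, SPRR1B, SPRR2D, SPRR2A, SPRR2B, SPRR2E, SPRR2F, SPRR2G, LELP1, PRR9 and LORICRIN. Counts were not spread evenly along this run. SPRR5, SPRR4, SPRR2B, SPRR2G, LELP1 and LORICRIN were at 0 in all 4 libraries. PRR9 ran the other way, with 0 counts in both OE33 libraries, 33 in the Eso26 library labelled siPPARG and 71 in the Eso26 control.

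The promoters of these 4 genes are shown because the genes were present in the same line and nearly absent in the other. Each window runs from 250 bases before to 50 bases after the RefSeq start on GRCh38.p14, written 5' to 3'. Capitals mark matches to TGANTCA, which is its own reverse complement apart from its middle base. With any middle base allowed, it is looser than the core recognised by AP-1 factors, TGAGTCA or TGACTCA.
SPRR1A, chr1:152983831-152984130, plus strand: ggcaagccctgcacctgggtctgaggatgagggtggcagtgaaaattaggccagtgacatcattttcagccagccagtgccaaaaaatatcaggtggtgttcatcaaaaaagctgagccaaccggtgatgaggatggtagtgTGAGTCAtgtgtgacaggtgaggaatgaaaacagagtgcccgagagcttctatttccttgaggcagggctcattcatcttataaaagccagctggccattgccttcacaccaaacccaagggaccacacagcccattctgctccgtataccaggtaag
SPRR1B, chr1:153030953-153031252, plus strand: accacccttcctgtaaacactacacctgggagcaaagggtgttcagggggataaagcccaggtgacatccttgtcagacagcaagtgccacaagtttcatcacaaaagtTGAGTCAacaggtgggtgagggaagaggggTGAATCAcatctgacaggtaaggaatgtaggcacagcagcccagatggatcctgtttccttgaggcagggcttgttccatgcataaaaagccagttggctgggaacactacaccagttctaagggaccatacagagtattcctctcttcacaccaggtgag
SPRR3, chr1:153001499-153001798, plus strand: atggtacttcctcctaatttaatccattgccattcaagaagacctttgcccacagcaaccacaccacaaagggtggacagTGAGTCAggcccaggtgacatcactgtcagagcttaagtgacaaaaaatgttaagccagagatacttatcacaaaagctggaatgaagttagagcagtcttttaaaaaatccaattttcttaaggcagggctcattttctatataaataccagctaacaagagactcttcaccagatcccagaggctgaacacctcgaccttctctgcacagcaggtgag
IVL, chr1:152908296-152908595, plus strand: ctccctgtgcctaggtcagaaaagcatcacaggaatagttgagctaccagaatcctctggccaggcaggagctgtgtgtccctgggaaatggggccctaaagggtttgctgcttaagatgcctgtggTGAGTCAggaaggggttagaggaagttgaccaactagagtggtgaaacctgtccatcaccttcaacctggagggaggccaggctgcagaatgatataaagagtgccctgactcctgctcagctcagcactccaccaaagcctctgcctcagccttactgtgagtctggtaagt

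All 4 windows held the motif TGANTCA. SPRR1B held it as TGAGTCA, beginning 141 bases before the start, and as TGAATCA, beginning 111 bases before it. The match was TGAGTCA at 108 bases in SPRR1A, at 170 in SPRR3 and at 123 in IVL. The SFN window also held a match, TGATTCA at 170 bases before the start, and those of TP63, DSG3 and DSC2 held none. TGAATCA in SPRR1B and TGATTCA in SFN match only the looser motif. TGM1 and TGM2 had no entry in the promoter table. Of all 35116 promoter windows of this length, 7.71% held the motif, as did 14 of the 26 other cornified envelope and late squamous genes with an entry. The SPRR genes are paralogs, so their promoters are not independent examples. The motif TATAAA stood 29 bases before the start in SPRR1A and SPRR3 and 30 bases before it in IVL, and was not found in the SPRR1B window. It occurred in 11.5% of all windows. Neither the interferon response element core, GAAA repeated after 2 free bases (3.57% of all windows), nor the PPAR element, AGGTCA repeated after 1 free base (0.0228%), was found in the windows of the 8 genes with an entry, searched on both strands. A match is a feature of the reference sequence, and PPARG binding near these genes was not analysed here.

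**Figure D1:**
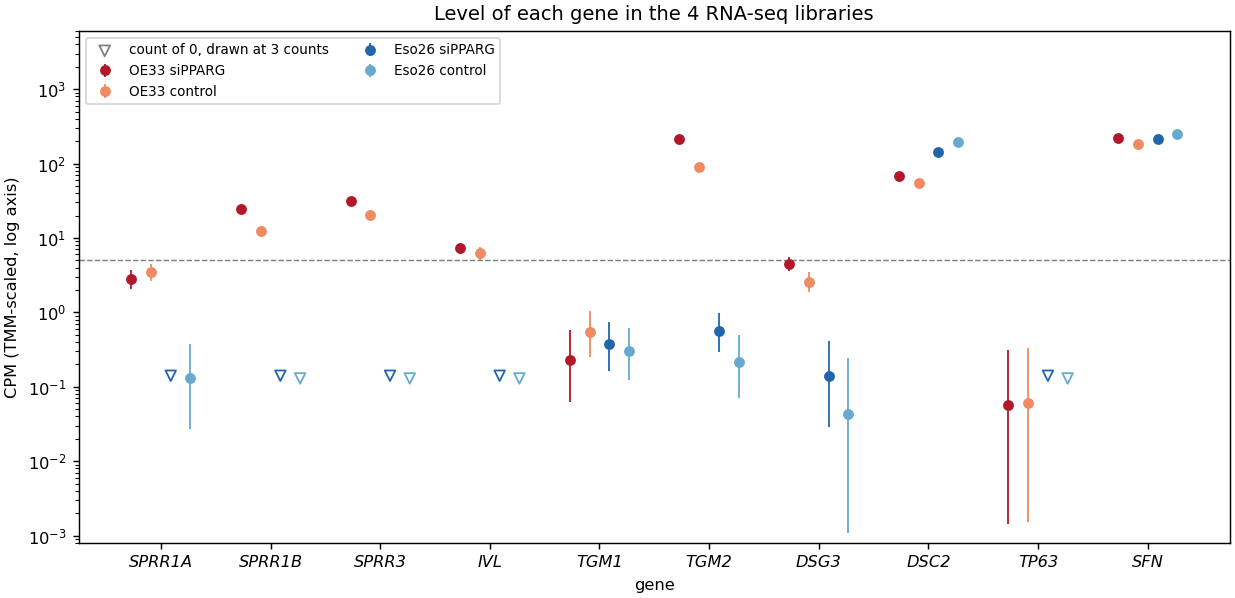
TMM-scaled CPM (log axis) of the 10 genes in OE33 siPPARG, the OE33 control, the Eso26 library labelled siPPARG and the Eso26 control. Bars are 95% Poisson counting intervals, open triangles mark a count of 0 drawn at the level of 3 counts, and the dashed line marks 5 CPM. SPRR1B, SPRR3, IVL and TGM2 lie above the dashed line in both OE33 libraries and below 1 CPM in both Eso26 libraries, whereas DSC2 and SFN lie above it in all 4.

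Between the controls, the OE33 library was higher than the Eso26 library for the envelope precursors by margins that can only be bounded. Taken at the floor of 3 counts in the Eso26 control, SPRR3 was at least 156-fold higher in the OE33 control, SPRR1B at least 96.1-fold and IVL at least 48.0-fold. The lower limits of the counting intervals of these ratios, which also carry the counting error of the OE33 control, were lower, at 126 for SPRR3, 77.4 for SPRR1B and 38.4 for IVL. SPRR1A, at 3.44 CPM in the OE33 control and 0.129 CPM in the Eso26 control, had a ratio of 26.6 (interval 8.65 to 133) and stayed under 5 CPM in every library. SPRR3, SPRR1B and IVL passed the 5 CPM filter only through OE33 and so had to differ, as did TGM2. Past 2-fold, 21.5% of the 11211 genes kept in this comparison were higher in the OE33 control and 16.3% were lower.

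The transglutaminases split. TGM2, a widely expressed transglutaminase that is not specific to the cornified envelope, had 3799 counts in OE33 siPPARG and 1472 in the OE33 control, against 12 in the Eso26 library labelled siPPARG and 5 in the Eso26 control. Its ratio between the OE33 and Eso26 controls was 412 (interval 176 to 1271). TGM1, the membrane-bound keratinocyte enzyme that crosslinks the envelope, was near the limit of detection everywhere. TGM1 had 4 counts in OE33 siPPARG, 9 in the OE33 control, 8 in the Eso26 library labelled siPPARG and 7 in the Eso26 control, and all 4 counting intervals overlap. None of the 6 other transglutaminase genes examined reached 5 CPM. TGM3, the epidermal enzyme, had 0 counts in both OE33 libraries, 37 in the Eso26 library labelled siPPARG and 15 in the Eso26 control.

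The desmosomal cadherins of the set, DSC2 and DSG3, went in opposite directions between the lines. DSC2 (desmocollin 2), which many simple epithelia express, was lower in OE33. It stood at 67.8 CPM in OE33 siPPARG and 55.6 CPM in the OE33 control, against 142 CPM in the Eso26 library labelled siPPARG and 198 CPM in the Eso26 control. No counting intervals overlap among these 4 levels, and the ratio of the OE33 to the Eso26 control was 0.281 (interval 0.262 to 0.302). DSG3 (desmoglein 3), a cadherin of stratified epithelium, had 79 counts in OE33 siPPARG and 43 in the OE33 control, against 3 in the Eso26 library labelled siPPARG and 1 in the Eso26 control. DSG3 thus resembled the SPRR genes in its place but stayed under 5 CPM, with a ratio of 60.2 between the controls and a wide interval of 10.2 to 2431.

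Of 13 other desmosome genes, 8 were kept between the controls. DSC3, the desmocollin of basal squamous cells, had 631 counts in the OE33 control and 1 in the Eso26 control, a ratio of 883 (interval 158 to 34928). It passed the 5 CPM filter only through OE33 and so had to be higher there. PKP2, a plakophilin, stood at 0.418 (interval 0.395 to 0.443) and PERP, a desmosomal p53 target, at 0.323 (interval 0.316 to 0.330). The cadherin DSG2 (ratio 0.985, interval 0.955 to 1.02) and the linker genes JUP (1.14, interval 1.12 to 1.15) and DSP (1.13, interval 1.09 to 1.18) were within 2-fold.

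TP63 was at the limit of detection in both lines. It had 1 count in OE33 siPPARG and 1 in the OE33 control, and 0 in both Eso26 libraries. The squamous genes present in OE33 were thus accompanied by no TP63 signal above 0.336 CPM, the upper counting limit in the OE33 control. SOX2, another basal squamous factor, had 2 counts in the OE33 control and 198 in the Eso26 control. Among the other squamous transcription factors, PITX1 (ratio 10.7, interval 9.03 to 12.7), GRHL3 (6.74, interval 5.76 to 7.93), GRHL1 (4.92, interval 4.29 to 5.65) and the receptor gene NOTCH3 (3.42, interval 3.07 to 3.81) were past 2-fold higher in the OE33 control. TFAP2C (0.145, interval 0.106 to 0.194), NOTCH1 (0.345, interval 0.318 to 0.373) and SOX2 were past 2-fold lower. These are 4 higher and 3 lower of the 12 kept, where 21.5% of all 11211 genes kept were past 2-fold higher and 16.3% lower. SOX2 and TFAP2C passed the 5 CPM filter only through Eso26 and so could only be lower in OE33.

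SFN, which encodes 14-3-3 sigma, an epithelial member of the 14-3-3 family and a p53 target, was abundant in all 4 libraries. It stood at 217 CPM in OE33 siPPARG, 182 CPM in the OE33 control, 213 CPM in the Eso26 library labelled siPPARG and 253 CPM in the Eso26 control. From high to low the order was the Eso26 control, OE33 siPPARG, the Eso26 library labelled siPPARG and the OE33 control, and the neighbours in the middle have overlapping counting intervals (210 to 224 CPM and 207 to 219 CPM). SFN had the smallest range among the 6 genes that reached 5 CPM, 0.48 on the log2 scale, while TGM2 had the widest at 9.41. None of the 6 other 14-3-3 genes passed 2-fold between the controls. The ratio was highest for YWHAB (1.37, interval 1.33 to 1.40) and lowest for YWHAZ (0.612, interval 0.603 to 0.622) and YWHAQ (0.676, interval 0.659 to 0.693).

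Other cornified envelope and late squamous genes followed only in part. Of 34 such genes outside the set, 29 were under 5 CPM in both controls. PPL (periplakin), a plakin of the envelope scaffold, had 4447 counts in the OE33 control and 2129 in the Eso26 control (ratio 2.92, interval 2.77 to 3.08). SCEL (sciellin), an envelope precursor, had 471 and 14 counts (ratio 47.1, interval 27.8 to 86.8), and EMP1 had 2448 and 296 (ratio 11.6, interval 10.3 to 13.1). ECM1 went the other way, with 10 counts in the OE33 control and 162 in the Eso26 control (ratio 0.0864, interval 0.0406 to 0.163). SCEL passed the 5 CPM filter only through OE33 and ECM1 only through Eso26, so the direction of each was fixed by the filter. Late markers of the granular layer, FLG (filaggrin) and LOR (loricrin), were at 0 in all 4 libraries. Among proteases and inhibitors, SERPINB5 (maspin) had a ratio of 48.1 (interval 32.4 to 74.8), KLK10 of 4.17 (interval 3.27 to 5.35) and KLK6 of 0.346 (interval 0.326 to 0.367). SERPINB5 and KLK10 also passed the filter only through OE33. Of 10 squamous keratins, 4 reached 5 CPM in the OE33 control (KRT10, KRT13, KRT15 and KRT16) and 1, KRT10, in the Eso26 control. KRT5 and KRT14, the basal keratins, were at 3 and 2 counts in the OE33 control and at 58 and 0 in the Eso26 control.

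**Figure D2:**
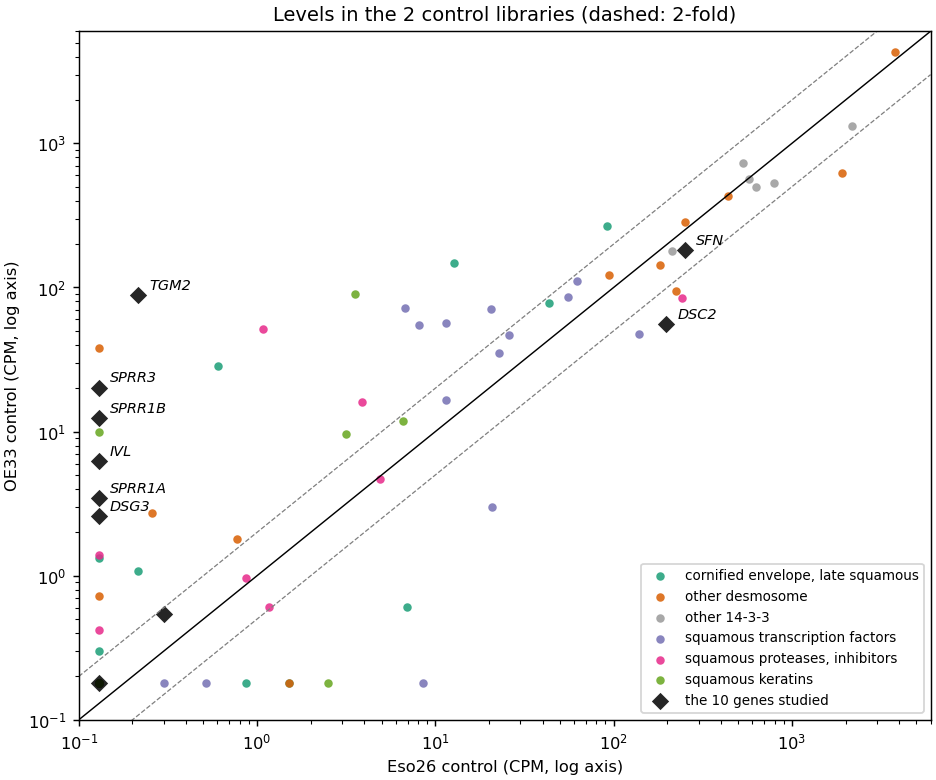
CPM in the OE33 control (vertical, log axis) against CPM in the Eso26 control (horizontal, log axis), 1 library each. Points are genes of the set (diamonds) and of 6 related lists with a count in at least 1 control, values under 3 counts are drawn at 3 counts, and the dashed lines mark 2-fold. SPRR3, SPRR1B and IVL sit at the left edge, TGM2 stands at 88.7 CPM against 0.215 CPM, DSC2 lies below the lower dashed line and SFN lies between the lines.

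With both libraries of a line in 1 fit, the line difference can be tested across all genes, on 1 residual degree of freedom. The spread in that fit is the difference in siRNA effect between the lines, not a spread between replicate cultures. By edgeR's quasi-likelihood test with Benjamini-Hochberg adjustment over 11382 genes, 37.2% of genes were called higher in OE33 and 34.1% lower at an adjusted p under 0.05. Against so large a background a call by itself says little about these genes. TGM2, SPRR3, SPRR1B and IVL entered this fit only through their OE33 levels, so their direction was fixed by the filter and no p-value is given for them. DSC2 was called lower in OE33 by edgeR (log2 fold -1.45, adjusted p = 0.0015), and SFN was not called (log2 fold -0.23, adjusted p = 0.241).

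After siPPARG in OE33, TGM2 was the gene of the set past 2-fold. Its 3799 counts in siPPARG against 1472 in the control gave a CPM ratio of 2.43 (interval 2.29 to 2.58), and its log2 ratio was the 57th highest of 10550 genes kept. Past 2-fold, 1.08% of those genes were higher and 0.408% lower. The 6 kept genes, each at 5 CPM or more in both OE33 libraries, all had ratios above 1, with a median log2 ratio of 0.46 against 0.0024 over all genes kept. Counting intervals lay above 1 for 5 of them, where 26.0% of all genes kept had an interval above 1 and 24.5% one below it.

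The envelope precursors differed among themselves in OE33. SPRR1B, at 24.2 CPM in siPPARG and 12.4 CPM in the control, had a ratio of 1.95 (interval 1.65 to 2.32) and the 124th highest log2 ratio, just inside 2-fold. SPRR3, at 31.3 CPM in siPPARG and 20.2 CPM in the control, had a ratio of 1.55 (interval 1.35 to 1.78), the 308th highest. IVL, at 7.26 CPM in siPPARG and 6.21 CPM in the control, had a ratio of 1.17 whose interval of 0.895 to 1.53 includes 1. SPRR1A, under the filter, had a ratio of 0.809 (interval 0.541 to 1.21), which includes 1 and does not overlap that of its close paralog SPRR1B.

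The labels do not say how reads shared between paralogs were counted, so the split between SPRR1A and SPRR1B is uncertain. Their summed counts were 476 in OE33 siPPARG and 263 in the OE33 control, a ratio of 1.70 (interval 1.46 to 1.99). The SPRR2 genes, also chosen after their values were seen, were low. SPRR2D had 46 counts in siPPARG and 22 in the control (ratio 1.97, interval 1.16 to 3.44), and SPRR2A had 35 and 18 (ratio 1.83, interval 1.01 to 3.43). SPRR2E had 1 and 3 counts and SPRR2F 1 and 2 in OE33 siPPARG and control, and SPRR2B and SPRR2G had 0. Over all 12 SPRR genes in the tables, 1110 counts in OE33 siPPARG stood against 643 in the OE33 control (ratio 1.63, interval 1.47 to 1.79). Most of these came from SPRR1B (427 and 206) and SPRR3 (551 and 335), and 7 of the 12 genes had any count in OE33. SPRR1A, SPRR2E and SPRR2F had fewer counts in siPPARG than in the control, so the sum does not describe the whole family.

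The desmosomal cadherins of the set, DSG3 and DSC2, and SFN had OE33 ratios above 1. DSG3, under the filter at 4.48 CPM in siPPARG and 2.59 CPM in the control, had a ratio of 1.73 (interval 1.18 to 2.57). DSC2, with 1194 counts in siPPARG and 922 in the control, had 1.22 (interval 1.12 to 1.33). SFN, with 3824 counts in siPPARG and 3013 in the control, had 1.19 (interval 1.14 to 1.25). TGM1, with 4 and 9 counts, and TP63, with 1 and 1, gave no usable ratio.

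In Eso26, DSC2 and SFN were the kept genes of the set, and both were lower in the library labelled siPPARG. DSC2 had 3038 counts in that library and 4588 in the control, a ratio of 0.720 (interval 0.687 to 0.754). SFN had 4545 and 5874 counts, a ratio of 0.841 (interval 0.809 to 0.874). Neither passed 2-fold, a threshold that 0.0576% of 10421 genes passed upward and 0.144% downward. Counting intervals lay below 1 for 29.6% of all Eso26 genes kept and above 1 for 23.6%, so an interval below 1 is not particular to DSC2 or SFN. TGM2, with 12 counts in the library labelled siPPARG and 5 in the control, had a ratio of 2.61 whose interval of 0.855 to 9.45 includes both 1 and the OE33 value. SPRR1B, SPRR3, IVL and TP63 were at 0 in both Eso26 libraries, so no ratio exists.

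**Figure D3:**
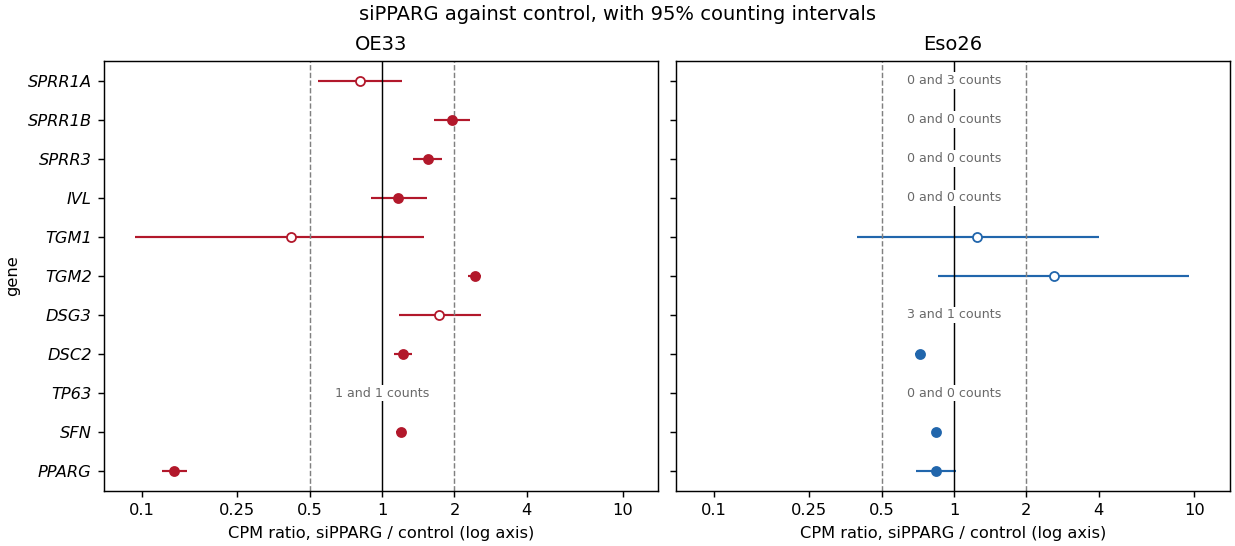
CPM ratio of siPPARG to control (log axis) for the 10 genes and PPARG in OE33 (left) and Eso26 (right), 1 library per condition, with 95% counting intervals. Filled points reached 5 CPM in either compared library, open points did not, counts (siPPARG and control) are printed where they were too few, and dashed lines mark 2-fold. In OE33, TGM2 at 2.43 lies past the dashed line and SPRR1B at 1.95 just inside it, while DSC2 and SFN lie on opposite sides of 1 in the 2 lines.

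For siPPARG against control over both lines, 0 of 11382 genes (0% in either direction) passed edgeR's quasi-likelihood test, and 523 had an unadjusted p under 0.05. DESeq2 called 13 and limma-voom 0. TGM2 was among the 13 (DESeq2 log2 fold 1.29, adjusted p = 0.00273) and had an adjusted p of 0.942 by edgeR. TGM2 reached 5 CPM only in OE33. Its 12 and 5 counts in Eso26, with a ratio interval of 0.855 to 9.45, contribute little to that fold, which rests mostly on the OE33 libraries. SPRR1B (log2 fold 0.96) and SPRR3 (log2 fold 0.63) also had an adjusted p of 0.942 by edgeR. Both had 0 counts in both Eso26 libraries, so their folds rest on the OE33 libraries alone. DSC2 (log2 fold -0.10, adjusted p = 0.973) and SFN (log2 fold 0.0024, adjusted p = 0.998), which went opposite ways in the lines, were not called by edgeR.

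Related genes in OE33 had ratios on both sides of 1. Of 34 other cornified envelope and late squamous genes, 4 were kept, none past 2-fold, with a median log2 ratio of -0.044. EVPL (envoplakin) stood at 0.801 (interval 0.738 to 0.868), SCEL at 1.26 (interval 1.11 to 1.42) and EMP1 at 0.931 (interval 0.879 to 0.985). Of 8 kept desmosome genes, 5 had ratios above 1 and 3 below, led by DSC3 at 0.779 (interval 0.692 to 0.876), PKP3 at 1.22 (interval 1.15 to 1.29) and PKP2 at 1.10 (interval 1.03 to 1.18). The 10 kept squamous transcription factors were evenly divided, with log2 ratios of -0.18 for OVOL1, 0.14 for NOTCH3 and -0.15 for TFAP2A at the ends. The 6 other 14-3-3 genes stayed between log2 ratios of -0.045 (YWHAQ) and 0.13 (YWHAH). SERPINB5 had 463 counts in siPPARG and 860 in the control, a ratio of 0.507 (interval 0.452 to 0.568), whereas KLK10 (1.26, interval 1.07 to 1.48) and KLK6 (1.24, interval 1.15 to 1.33) stood above 1. Of the 4 squamous keratins kept, 2 were higher and 2 lower. KRT16 stood at 2.05 (interval 1.69 to 2.49) and KRT13 at 0.183 (interval 0.121 to 0.268). KRT13 passed the 5 CPM filter only through the OE33 control and so could only be lower. Past 2-fold, 1.08% of all genes kept in OE33 were higher and 0.408% lower.

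In Eso26, EMP1 was the 1 gene of these related lists past 2-fold, with 120 counts in the library labelled siPPARG and 296 in the control (ratio 0.441, interval 0.353 to 0.547). Of 7 kept desmosome genes, 5 had intervals below 1 and 2 above, with PERP at 0.766 (interval 0.755 to 0.777), PKP2 at 0.838 (interval 0.804 to 0.874) and DSG2 at 0.844 (interval 0.820 to 0.870). Over all genes kept in Eso26, 29.6% had an interval below 1 and 23.6% one above it. Counting intervals are narrow for genes with many reads, such as PERP with 31334 counts in the library labelled siPPARG and 44472 in the control. KLK6, the kept protease gene, stood at 0.761 (interval 0.730 to 0.793). Among the transcription factors, SOX2 (0.768, interval 0.614 to 0.959), KLF4 (0.786, interval 0.725 to 0.851) and TP73 (1.23, interval 1.04 to 1.45) had the largest log2 ratios, and of the other 14-3-3 genes YWHAG (0.778, interval 0.758 to 0.799), YWHAZ (0.874, interval 0.863 to 0.886) and YWHAB (1.13, interval 1.10 to 1.15).

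Interferon-response genes were listed because an earlier analysis had seen this response in OE33 siPPARG. Their rise in the same OE33 comparison is therefore not an independent result. All 11 kept of 12 listed were higher in OE33 siPPARG. Their median log2 ratio was 1.81, and 8 passed 2-fold, where 1.08% of all 10550 genes kept were past 2-fold higher. Their summed level was 5056 CPM in OE33 siPPARG and 1755 CPM in the OE33 control, against 700 CPM in the Eso26 library labelled siPPARG and 737 CPM in the Eso26 control. Their part in the TGM2 and SPRR values was not tested.

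**Figure D4:**
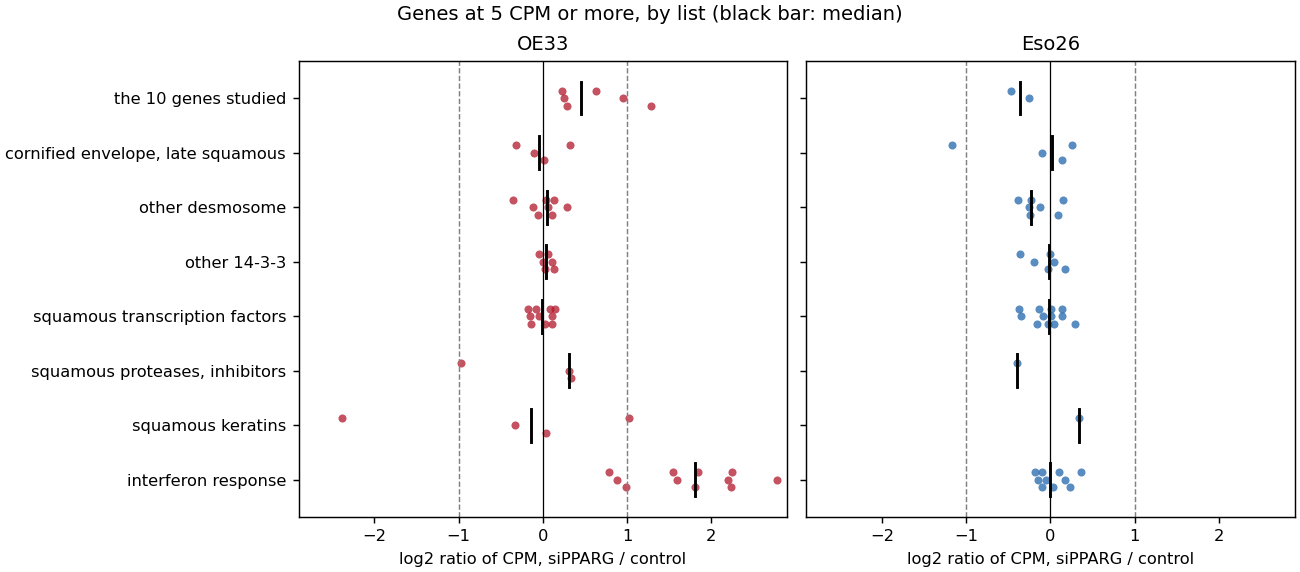
Log2 ratio of CPM, siPPARG to control, for each gene reaching 5 CPM in either compared library, by list, in OE33 (left) and Eso26 (right), with list medians as black bars and 2-fold as dashed lines. In OE33 the 6 genes of the set lie right of 0 with a median of 0.46. The desmosome, 14-3-3 and transcription factor lists centre near 0 there. The interferon list, chosen because this response was already known in OE33 siPPARG, has a median of 1.81.

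The genes closest to the set's widest-ranging members across the 4 libraries were found by the Euclidean distance of gene-centred log2 CPM, among 11381 other genes. The values of TGM2 were nearest those of AHNAK2 (distance 0.65), CDA (0.68) and SCIN (0.75). SPRR3 lay nearest MT1E (0.050), SYT14 (0.063) and RAB32 (0.14). MT1E, for instance, had 565 counts in OE33 siPPARG and 327 in the OE33 control and 0 in both Eso26 libraries. SPRR1B lay nearest SAA2 (0.23), RARRES3 (0.23) and THEMIS2 (0.30), and RARRES3 had 8436 and 3662 counts in OE33 siPPARG and control against 44 in the Eso26 library labelled siPPARG and 39 in the Eso26 control. With 4 libraries such likeness mostly records presence in OE33 and absence in Eso26.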

How the data were processed

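The authors deposited raw counts per gene, in 1 column per condition, per the file headers. Per the submitters' processing notes, the tools were Trim Galore, STAR, Bowtie, Picard, MACS2 and the build was hg19, with no roles stated; the read counter, strand setting, handling of multi-mapping reads and annotation are not stated there. Of 37533 rows, 40 repeat an identifier and were summed, leaving 37493, of which 37402 matched the identifier table. The PPARG ChIP-seq peak lists were not used here, because no annotation of their build was at hand.

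Counts were scaled with TMM factors over the 4 libraries (edgeR 4.0.16, R 4.3.3). Log2 ratios of CPM used a prior count of 2, among genes reaching 5 CPM in either compared library. Ratios carry exact conditional binomial and levels exact Poisson 95% intervals, which cover counting error only. Line and treatment were tested in 1 edgeR quasi-likelihood fit, with DESeq2 1.42.0 and limma 3.58.1 as alternatives; its p-values measure only the spread between these libraries.

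Named genes were the 10 members, PPARG, the genes of each related list past 2-fold in a comparison or otherwise the 3 with the largest log2 ratio, and the nearest profiles; other names (low-count family members, markers, keratins, and further genes near a ratio of 1) were chosen after their values were seen. The members and lists were chosen with earlier results of these data known. Promoters are RefSeq, GRCh38.p14; 8 of the 10 genes matched.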

Additional observations from a re-analysis of the deposited data

Results flagged for a closer look

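DSC2 and SFN went opposite ways in the lines. The CPM ratio of siPPARG to control for DSC2 was 1.22 in OE33 and 0.720 in Eso26, and that for SFN was 1.19 in OE33 and 0.841 in Eso26. Each counting interval was clear of 1, but with 1 library per condition the difference between the lines was not tested. Such intervals were common. Of all genes kept, 26.0% had one above 1 and 24.5% one below it in OE33, and 23.6% and 29.6% in Eso26. PPARG mRNA was not detectably reduced in the Eso26 library labelled siPPARG.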

How the results depend on the processing

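No paired analysis was possible because each group has 1 library and the labels give no replicate numbers; line is a term of the fit over 4 libraries. Log2 ratios of siPPARG to control for the kept members stayed within their counting intervals under the other scalings, filters and prior count tried. Between the controls those of DSC2, SFN and TGM2 did too, but at a prior count of 0.5 in place of 2 the log2 ratio was 8.95 in place of 6.96 for SPRR1B, 9.65 in place of 7.66 for SPRR3 and 7.95 in place of 5.97 for IVL, whose intervals have no upper limit. With 0 members past 2-fold in Eso26, 2 passed without a filter, 1 of them higher (TGM2) and 1 lower (SPRR1A), with at most 12 counts in a library. The 1 member past 2-fold in OE33 became 3 at a 1.5-fold threshold. All genes past 2-fold in Eso26 numbered 21 (6 higher, 15 lower), against 100 at 1 CPM (64 higher, 36 lower), 9 at 10 CPM (1 higher, 8 lower), 1047 without a filter (713 higher, 334 lower) and 249 past 1.5-fold (130 higher, 119 lower), so the prevailing direction turned with the filter and the threshold. With library totals alone the split was 8 higher and 10 lower. In OE33 they numbered 157 (114 higher, 43 lower), against 297 at 1 CPM (216 higher, 81 lower), 1137 without a filter (556 higher, 581 lower) and 600 past 1.5-fold (356 higher, 244 lower). Between the controls they numbered 4233, against 7421 without a filter and 6653 past 1.5-fold. For siPPARG over both lines, 0 members and 0 genes by edgeR became 1 member and 13 genes by DESeq2, and 1 member and 64 genes by edgeR without a filter, the member being TGM2 each time (adjusted p = 0.000849 by edgeR without a filter; 0.942 with the filter). SFN changed sign there by limma-voom (adjusted p = 0.996) and by edgeR with DESeq2 size factors (adjusted p = 0.999). The cause was not tested. With each library left out in turn and the treatment term dropped, 1 line kept a single library, so only effect sizes are given. The edgeR log2 fold of OE33 against Eso26 then ran from -1.68 to -1.21 for DSC2 and from -0.36 to -0.094 for SFN. Depth limits SPRR1A, TGM1, TP63 and DSG3, and every SPRR gene in Eso26.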
